A study of Mus musculus with 14 samples.

Results

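The mitochondrial genome of the mouse carries 37 genes, and each of them had a row whose name begins with mt- in both count tables of RNA-seq on the dorsal hippocampus. These 37 genes, 13 coding for proteins, 2 for ribosomal RNAs (rRNAs) and 22 for transfer RNAs (tRNAs), were chosen by that prefix alone, out of 26570 genes listed in the basal table and 25933 in the learning table. In the mm9 annotation all of them lie on the mitochondrial chromosome, a circle of 16299 bases. All 14 libraries came from male C57BL6 mice aged 8 months, each library from a single mouse as far as the labels show. In the basal experiment, mice at rest without training or treatment were either wild type (WT basal, n = 3) or THY-Tau22 (TAU basal, n = 2). THY-Tau22 mice carry a mutated human Tau under the Thy1.2 promoter, which drives it in neurons. In the learning experiment, WT mice given saline stayed in the home cage (WT VEH_HC, n = 3) or were trained in the Morris water maze (WT VEH, n = 2). Trained THY-Tau22 mice received either CSP, glucose-derived carbon nanospheres that serve as carrier (TAU VEH, n = 2), or CSP-TTK21, the carrier coupled to an activator of the CBP/p300 acetyltransferases (TAU MOL, n = 2). Trained WT mice thus differed from TAU VEH mice in genotype and also in the vehicle. The authors had left out 3 libraries of this experiment, all from 1 litter, after seeing the data.

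Mitochondrial DNA is transcribed from both strands as long precursors, which are cut mostly at the tRNAs into mRNAs, rRNAs and tRNAs. The mRNAs code for core subunits of the respiratory chain and of ATP synthase, the machinery that supplies most of the ATP of neurons. The enzymes of transcription, RNA processing and replication of this genome are encoded by nuclear genes. Most mitochondrial mRNAs carry short poly-A tails and enter poly-A libraries such as these, whereas mature tRNAs are folded, modified and short, so that counts on tRNA genes may come from precursors as well as from tRNAs. The kit did not mark the strand, so reads of a minus-strand gene and of the plus-strand precursor opposite to it cannot be told apart. Of the 37 genes, 28 lie on the plus strand and 9, mt-Nd6 and 8 tRNAs, on the minus strand.

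Libraries held 24693713 (TAU VEH replicate 2) to 52180305 counts in the learning experiment and 28639121 to 37681155 in the basal experiment. They differed in how counts depended on GC content. Spearman's rho, across nuclear genes within a library, between GC content and the log2 ratio to the mean library was 0.32, 0.08 and 0.07 in WT basal, 0.48 and -0.60 in TAU basal, 0.09 and 0.28 in trained WT VEH, and 0.45, 0.42 and 0.46 in WT VEH_HC. It was -0.62 and -0.42 in TAU VEH libraries and -0.40 and -0.47 in TAU MOL libraries. The mitochondrial chromosome has a GC content of 36.7%. The hippocampal, neuronal and glial marker genes looked up were all present. The 14 choroid plexus markers, genes of an epithelium next to the hippocampus, summed to 2454 and 1594 CPM (counts scaled to a common library size, with TMM factors) in the trained WT VEH mice and to 80.1 to 239 CPM in their home-cage controls. They summed to 243 and 290 CPM in TAU VEH, to 786 and 719 CPM in TAU MOL, and in the basal experiment to 278 to 444 in WT basal and 407 and 1326 in TAU basal. The 7 neuronal markers summed to 16751 to 19277 CPM in the 5 WT libraries of the learning experiment and to 12912 to 13796 CPM in its 4 THY-Tau22 libraries. In bulk tissue, fewer cells of a type and less RNA per cell cannot be told apart.

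Mitochondrial genes together took between 5.71% and 8.70% of all counts in a library. In WT basal mice the share was 6.75%, 8.70% and 7.44% (7.63% ± 0.987, SD, n = 3), and in TAU basal mice 7.27% and 7.41%, within the WT range. In the learning experiment it was 5.90%, 7.42% and 7.33% in WT VEH_HC (6.88% ± 0.850, SD, n = 3) and 7.87% and 7.28% in trained WT VEH (7.58% ± 0.415, SD, n = 2). TAU VEH libraries gave 7.16% and 5.71% (6.44% ± 1.03, SD, n = 2) and TAU MOL libraries 6.94% and 7.46% (7.20% ± 0.367, SD, n = 2). Both TAU VEH libraries lay below both WT VEH libraries, but the lower of them, TAU VEH replicate 2, also had the fewest counts of all libraries. The TAU MOL libraries overlapped with both groups. With 2 libraries a group no exact permutation test can fall below the usual threshold, and none was made on these sums.

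What moved between libraries was the make-up of the mitochondrial counts as well as their amount. The rRNA genes took 8.14% to 9.21% of mitochondrial counts in the 5 basal libraries, where the genotypes overlapped. In the learning experiment they took 4.45%, 4.36% and 5.38% in home-cage mice and 6.67% and 6.42% in trained WT mice. In trained THY-Tau22 mice they took 8.05% and 7.39% with CSP and 7.57% and 8.00% with CSP-TTK21. Home-cage WT mice were therefore lowest, trained WT mice in between and both groups of trained THY-Tau22 mice highest, without overlap. The tRNA genes took 0.502% and 0.504% in WT VEH and 0.411% and 0.412% in TAU VEH, with 0.431% and 0.427% in TAU MOL and 0.466% to 0.552% in WT VEH_HC. Among protein-coding counts, mt-Co1, the catalytic subunit of complex IV, took 25.5% to 26.6% in every basal library and 14.2% to 20.6% in every learning library, so the experiments did not overlap. The same held for mt-Cytb, the only mitochondrial subunit of complex III, with 12.4% to 12.8% against 14.3% to 16.2%. Between the basal genotypes the shares of mt-Co1, mt-Co3, mt-Cytb and mt-Nd1 overlapped. Those of mt-Nd5 (4.49% to 5.05% in WT, 5.30% and 6.12% in THY-Tau22), mt-Nd6 (1.57% to 1.60%, 1.75% and 2.03%) and mt-Nd4 (12.7% to 12.8%, 12.6% and 12.6%) did not. The ratio of mt-Rnr2 to mt-Rnr1 counts was 1.42 to 1.44 in WT basal and 1.51 and 1.66 in TAU basal. These differences were not tested. The basal and learning tables came from different mice and were normalised apart, so no test was made between the tables.

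**Figure D1:**
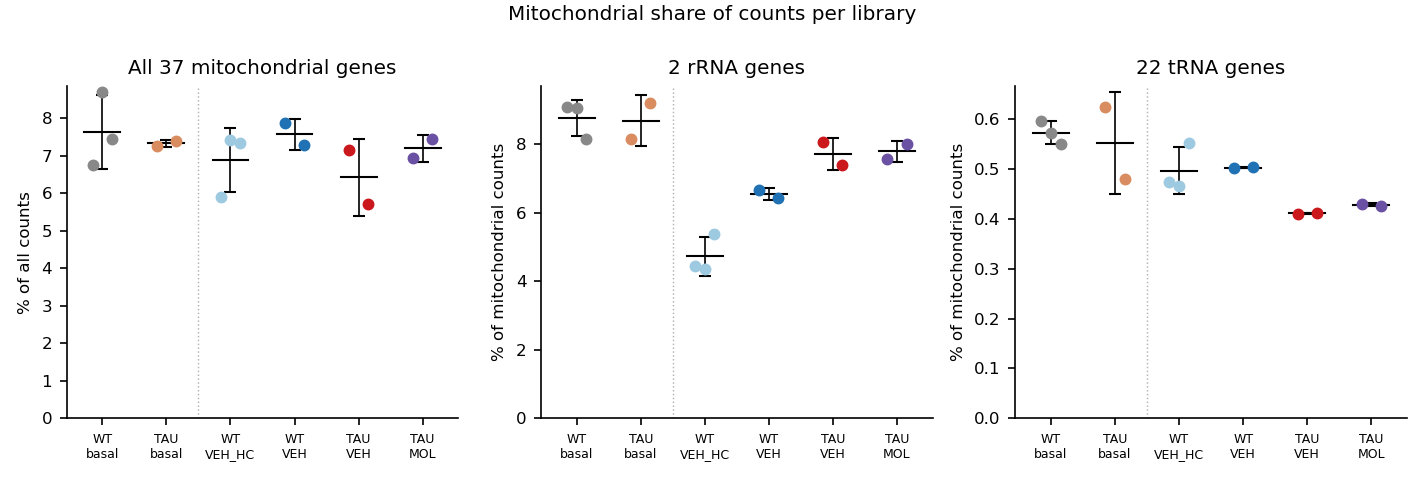
Percentage of all counts on the 37 mitochondrial genes (left), and percentage of mitochondrial counts on the 2 rRNA genes (middle) and the 22 tRNA genes (right), with a point per library and the mean and SD per group; the dotted line parts the basal from the learning experiment. The rRNA percentage was lowest in WT VEH_HC (4.36% to 5.38%) and highest among learning groups in the THY-Tau22 libraries (7.39% to 8.05%).

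Per length of gene, given as CPM per kb, protein-coding members spanned more than the spread between libraries. In the basal experiment mt-Co1 stood at 11510 CPM per kb (range over 5 libraries 10243 to 13514), mt-Co3 at 10747 (9804 to 12994) and mt-Co2 at 9299 (8180 to 11184), and these neighbours in the order overlapped. At the other end of the 12 tested were mt-Nd5 with 1923 and mt-Atp6 with 2105 CPM per kb, while mt-Nd4l, which was not tested, stood at 0.208. In the mean over the learning libraries mt-Co2 led with 10182 CPM per kb (7515 to 12301 over 9 libraries), followed by mt-Cytb with 8615. mt-Nd4, mt-Co1 and mt-Co3 followed with 7486, 7468 and 7449 CPM per kb, values much closer than their spread. The order below mt-Co2 differed between groups. In TAU VEH mt-Co3 (7094) and mt-Co1 (7093) stood above mt-Cytb (6989), and in WT VEH_HC mt-Nd4 and mt-Co1 were at 8091 and 6710. The rRNA genes stood at 2768 (mt-Rnr1, 12S) and 2483 CPM per kb (mt-Rnr2, 16S) in the basal and at 1873 and 1729 in the learning experiment. In poly-A libraries these levels do not measure the amount of rRNA in the cell. Of the tRNA genes mt-Ts1, for serine, was highest in both experiments with 1943 and 1130 CPM per kb in the mean over libraries. mt-Tc, for cysteine, was second with 1006 and 731, but in the TAU VEH group mt-Tp (510) stood above mt-Tc (463). The lowest were mt-Tv, for valine, with 5.85 and 4.29 CPM per kb and mt-Ts2, also for serine, with 9.49 and 4.10 CPM per kb.

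These levels are bounded by copies of mitochondrial DNA in the nuclear genome. A copy of 4654 bases on chromosome 1 of mm9 (chr1:24618374-24623027, minus strand) matches bases 6390 to 11042 of the mitochondrial chromosome at 99.9% identity, a copy on chromosome 2 (chr2:22442808-22446054, 97.4% identity) matches bases 4441 to 7699, and one on chromosome 4 (chr4:79648234-79651104, 93.0%) bases 12488 to 15356. Of 16250 windows of 50 bases, the length of the reads, 35.8% occurred more than once in mm9, and 10.5% had an identical copy within an annotated nuclear exon. For 14 members, 5 protein-coding and 9 tRNA genes, every window had a copy, and for 14 others none had. The authors counted uniquely aligned reads, yet mt-Co2 and mt-Co3, where all 635 and all 735 windows occurred elsewhere in mm9, were among the members with most counts. How such reads were assigned is not given in the sources used here.

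mt-Nd4l, a small subunit of complex I, was the only member at almost no counts, with 0 to 3 in each of the 14 libraries, although mt-Nd4, whose frame overlaps it by 7 bases, had at least 5305 CPM per kb in each. It was the only member left out by the filter on low counts, so 36 of 37 were tested in each experiment. All 248 of its windows lay in the exon of Gm10222 on chromosome 1 (chr1:24619243-24619539, minus strand), which equals mt-Nd4l at 297 of 297 bases and itself had 1 to 7 counts per library. The first 60 bases of both genes in mm9 are shown, with the start codon in capitals, because a read from here cannot be placed on either gene alone.
mt-Nd4l, chrM:9877-9936: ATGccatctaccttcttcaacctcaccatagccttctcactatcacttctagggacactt
Gm10222, chr1:24619480-24619539: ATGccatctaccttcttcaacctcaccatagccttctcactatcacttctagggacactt
The counts therefore say nothing of the level of mt-Nd4l. mt-Atp8 and mt-Atp6, the ATP synthase subunits, had a copy in a nuclear exon for 84.5% and 85.3% of their windows. Counted per 1000 windows without a copy in a nuclear exon, an alternative chosen after seeing the data, mt-Atp6 stood at 15734 CPM in WT basal and 20286 CPM in WT VEH in place of 2149 ± 294 (SD, n = 3) and 2770 ± 150 CPM per kb (SD, n = 2). mt-Atp8 moved from 2632 to 22373 in WT basal. The place of both genes in the order thus depended on the length used. mt-Co1 in WT basal moved from 11755 to 16816.

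**Figure D2:**
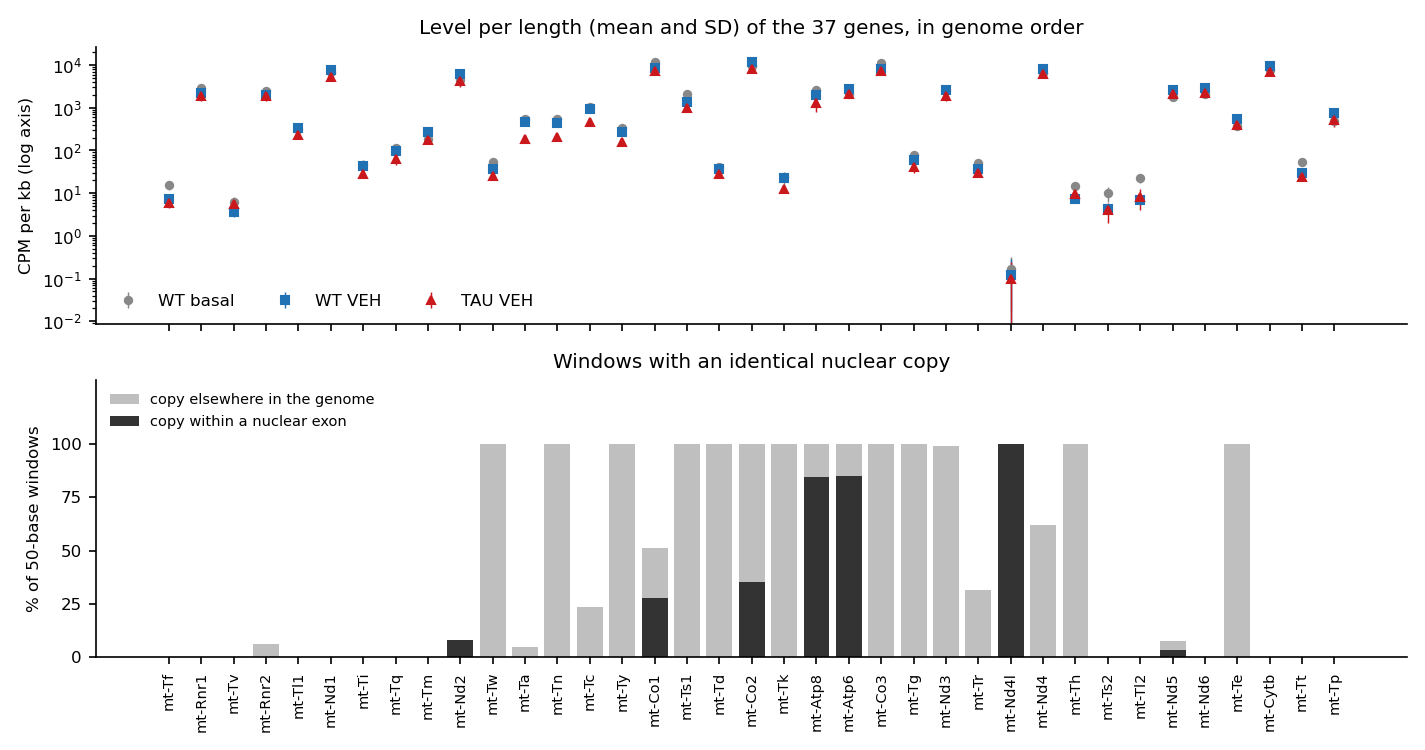
Top, level of each of the 37 genes in genome order as CPM per kb on a log axis (mean and SD of 3 WT basal libraries and of 2 each from WT VEH and TAU VEH); bottom, percentage of 50-base windows of the gene with an identical copy elsewhere in mm9, and with one in a nuclear exon. mt-Nd4l, with 100% of windows copied in a nuclear exon, is the gene at near 0.

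In the basal experiment, the comparison of THY-Tau22 to WT mice asks whether the tauopathy alone changed the members at rest. None of the 36 was called, by an adjusted p under 0.05 (edgeR, quasi-likelihood, Benjamini-Hochberg over all genes) and an absolute log2 fold change above 0.2. DESeq2 called 0 as well, and 2 members had an unadjusted p under 0.05, as had 803 of all genes. Few genes of any kind passed, with 0.00613% of the 16324 genes tested called higher and 0.0184% lower in edgeR, and 0.165% and 0.0796% in DESeq2. The members' median log2 fold change was -0.11 beside -0.01 over all genes, with 30 of 36 below 0 and standard errors of 0.13 to 0.41. Protein-coding members lay between -0.14 (mt-Co2) and 0.18 (mt-Nd6), mt-Rnr1 at -0.19 ± 0.15 (SE) and mt-Rnr2 at -0.03 ± 0.16 (SE). The libraries of TAU basal stood on either side of the WT range for mt-Ta and mt-Tc. mt-Ta had 38.4, 42.6 and 32.0 CPM in WT basal and 44.8 and 23.0 CPM in TAU basal, the lower value in replicate 2, the library with a rho for GC of -0.60 and with 1326 CPM of choroid plexus markers.

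The comparison of trained TAU VEH to trained WT VEH mice addresses the genotype under learning. Of the 36 tested, 12 fell and 0 rose, while over all genes 10.8% were called lower and 3.61% higher. The median log2 fold change was -0.43 beside 0.00 over the 16820 genes tested, 33 of 36 lay below 0, and 22 had an unadjusted p under 0.05, as had 4566 of all genes. In 29 of 36 members both TAU VEH libraries lay below both WT VEH libraries, as did 29.4% of all genes. The called members were 5 of 12 protein-coding genes, 0 of 2 rRNA genes and 7 of 22 tRNA genes. DESeq2 called 14 lower, these 12 with mt-Nd5 and mt-Te, and 0 higher, beside 10.3% of all genes lower and 4.55% higher. With library size alone, without TMM factors, 9 members were called lower and 0 higher, while over all genes the calls turned from mostly lower to 2578 higher and 1020 lower.

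**Figure D3:**
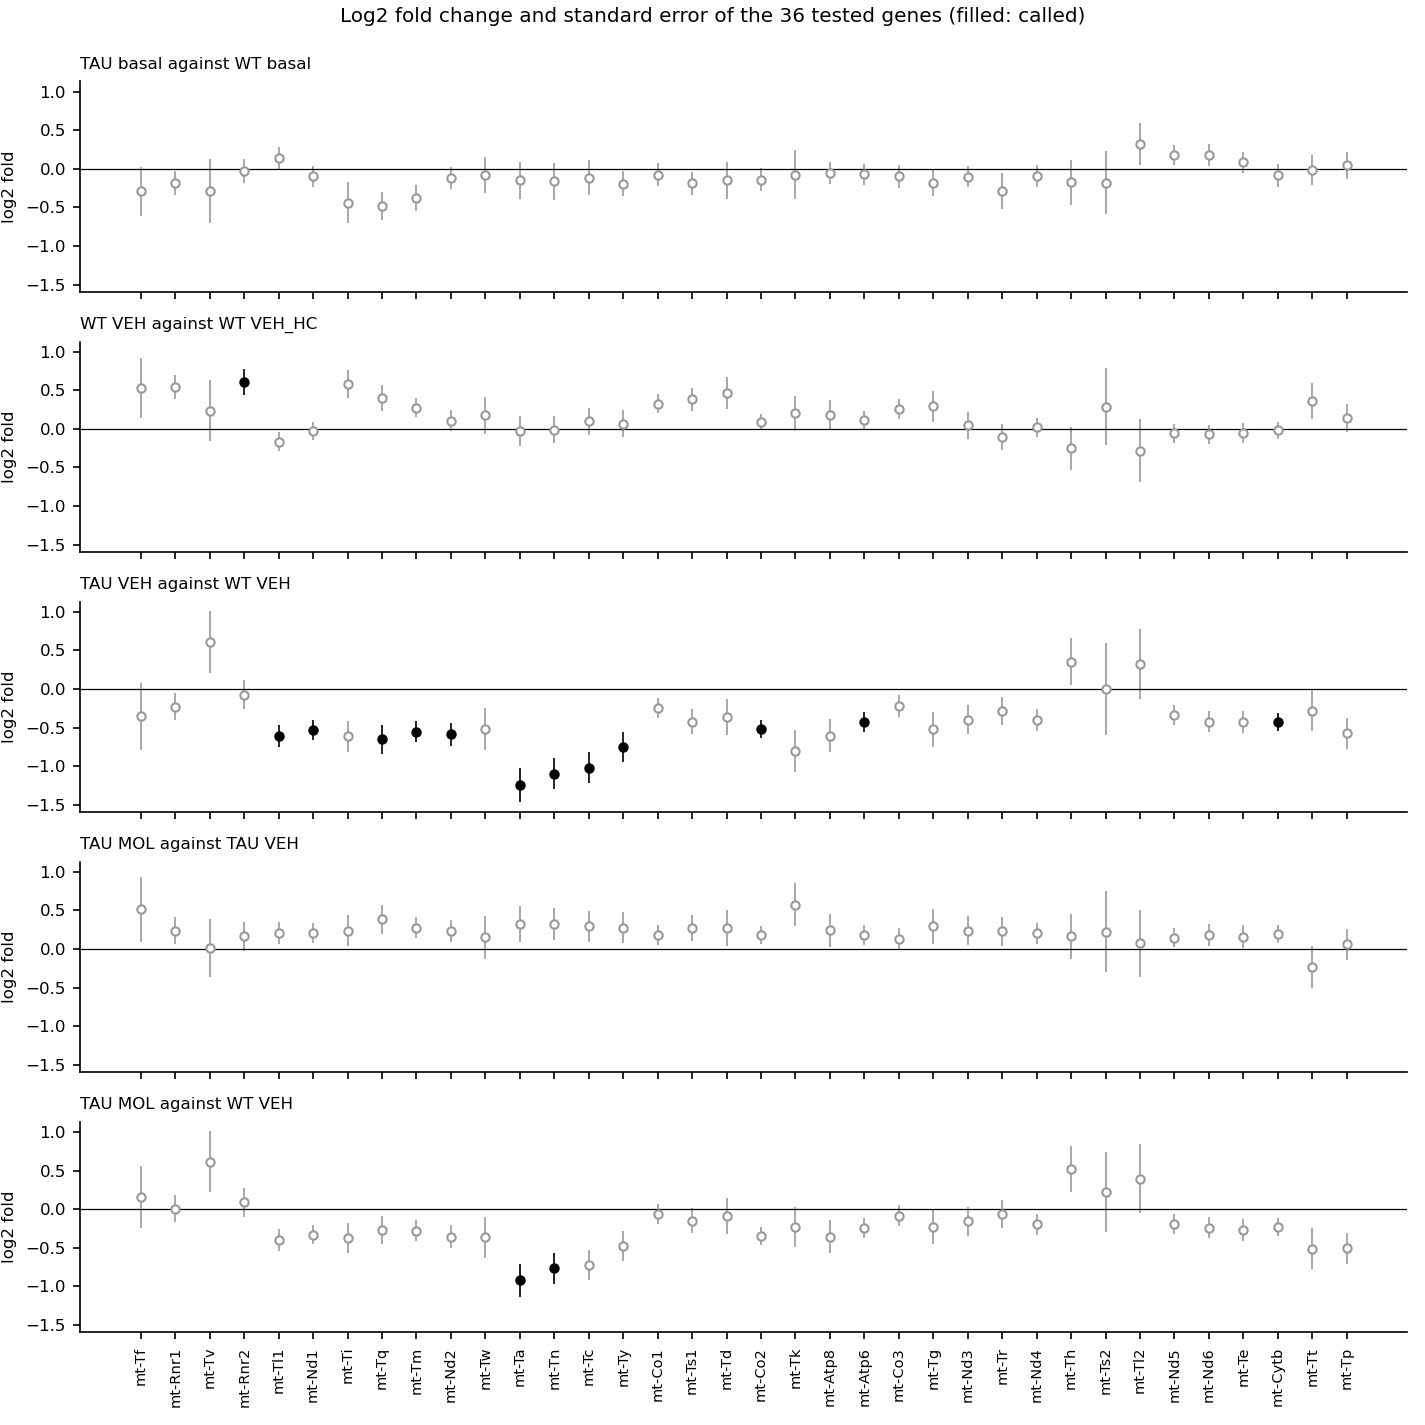
Log2 fold change of the 36 tested members in genome order, with standard errors, in the 5 comparisons; filled points passed the test. Filled points lie in TAU VEH compared to WT VEH (12 lower), TAU MOL compared to WT VEH (2 lower) and WT VEH compared to WT VEH_HC (1 higher).

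Complex I members on the first part of the plus strand fell. mt-Nd1 had 7737 and 7172 CPM in WT VEH and 5797 and 4484 CPM in TAU VEH, a log2 fold change of -0.54 ± 0.13 (SE, adjusted p = 0.016 in edgeR). mt-Nd2 had 6709 and 6215 CPM against 5030 and 3563 CPM, a log2 fold change of -0.59 ± 0.15 (SE, adjusted p = 0.019 in edgeR). In both genes the groups did not overlap, and TAU VEH replicate 2 was the lowest of the 4 libraries. The other complex I members tested lay between -0.42 (mt-Nd6) and -0.34 (mt-Nd5) and did not pass in edgeR, while DESeq2 called mt-Nd5 (-0.33). Among them mt-Nd4 had 11628 and 10971 CPM in WT VEH and 9785 and 7310 CPM in TAU VEH (-0.40 ± 0.14, SE, adjusted p = 0.076 in edgeR). mt-Nd6, the only protein-coding gene of the minus strand, had 1551 and 1500 CPM against 1318 and 956 CPM (adjusted p = 0.064 in edgeR). mt-Nd3 had 866 and 898 CPM against 780 and 557 CPM (-0.40 ± 0.19, SE). The groups did not overlap in these genes either.

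In complex IV, mt-Co2, the subunit that takes up electrons from cytochrome c, had 8414 and 7686 CPM in WT VEH and 6089 and 5140 CPM in TAU VEH (-0.52 ± 0.12, SE, adjusted p = 0.011 in edgeR). The other complex IV genes did not pass, with log2 fold changes of -0.25 ± 0.13 (SE) for mt-Co1 and -0.22 ± 0.14 (SE) for mt-Co3. mt-Cytb had 11122 and 10443 CPM in WT VEH and 8812 and 7180 CPM in TAU VEH, and fell by 0.43 on the log2 scale (adjusted p = 0.030 in edgeR). mt-Atp6 had 1959 and 1814 CPM against 1584 and 1214 CPM, a log2 fold change of -0.43 (adjusted p = 0.048 in edgeR), and mt-Atp8, with -0.60 ± 0.22 (SE), did not pass. The rRNA genes, at -0.23 ± 0.17 (SE) for mt-Rnr1 and -0.08 ± 0.19 (SE) for mt-Rnr2, overlapped between the groups.

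The lowest log2 fold changes among the called members belonged to 4 tRNA genes that follow each other on the minus strand between mt-Nd2 and mt-Co1. They carry alanine (mt-Ta), asparagine (mt-Tn), cysteine (mt-Tc) and tyrosine (mt-Ty), and the 32 bases between mt-Tn and mt-Tc are known as the origin of light-strand replication. Their sequences in mm9 are given 5′ to 3′ in the sense of the tRNA, with the anticodon in capitals, because this stretch carries the strongest falls among the called members. The bases between mt-Tn and mt-Tc are shown on the same strand.
mt-Ta, chrM:5018-5086: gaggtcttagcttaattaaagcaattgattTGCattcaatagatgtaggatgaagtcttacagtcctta
mt-Tn, chrM:5089-5159: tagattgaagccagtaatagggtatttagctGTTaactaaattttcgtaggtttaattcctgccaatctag
between mt-Tn and mt-Tc, chrM:5160-5191: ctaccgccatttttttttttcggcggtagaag
mt-Tc, chrM:5192-5257: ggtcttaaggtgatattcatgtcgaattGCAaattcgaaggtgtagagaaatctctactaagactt
mt-Ty, chrM:5260-5326: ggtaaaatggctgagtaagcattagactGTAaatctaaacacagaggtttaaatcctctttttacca

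mt-Ta had 33.1 and 29.7 CPM in WT VEH and 14.6 and 11.7 CPM in TAU VEH, a log2 fold change of -1.25 ± 0.22 (SE, adjusted p = 0.0035 in edgeR). mt-Tn had 33.0 and 30.7 CPM against 15.8 and 13.8 CPM (-1.10 ± 0.21, SE, adjusted p = 0.0044 in edgeR). mt-Tc, the most abundant of the 4, had 61.6 and 62.4 CPM against 32.3 and 28.8 CPM (-1.02 ± 0.20, SE, adjusted p = 0.0057 in edgeR). mt-Ty had 17.8 ± 1.24 CPM against 10.6 ± 0.520 CPM (SD, n = 2 each), a difference of -0.75 ± 0.20 on the log2 scale (SE, adjusted p = 0.026 in edgeR). Trained WT and trained THY-Tau22 mice did not overlap in any of these genes. In TAU MOL the 4 genes lay between the groups, with 16.6 and 16.6 CPM of mt-Ta and 37.2 and 38.0 CPM of mt-Tc, and in WT VEH_HC they spread over the WT VEH values, with 23.4, 29.6 and 43.2 CPM of mt-Ta. The 4 genes together took 35.8% and 36.6% of tRNA counts in WT VEH and 33.9% to 43.2% in home-cage mice, but 26.3% and 29.7% with TAU VEH and 29.7% and 28.5% with TAU MOL. In the basal libraries they took 36.4% to 40.5% in WT and 42.4% and 30.8% in THY-Tau22 mice. For mt-Tn and mt-Ty every 50-base window has a copy elsewhere, but for mt-Ta 1 of 20 and for mt-Tc 4 of 17.

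Outside this stretch the called tRNA genes were mt-Tl1, for leucine, with 27.9 and 23.8 CPM in WT VEH and 17.6 and 16.3 CPM in TAU VEH (-0.61 ± 0.14, SE, adjusted p = 0.015 in edgeR), mt-Tq, for glutamine (-0.65 ± 0.19, SE, adjusted p = 0.040), and mt-Tm, for methionine (-0.55 ± 0.14, SE, adjusted p = 0.018). The remaining 15 tRNA genes did not pass in edgeR, while DESeq2 called mt-Te (-0.42), and they ranged from -0.81 (mt-Tk, for lysine) to 0.60 (mt-Tv, with 7 to 21 counts per library). The log2 fold change was -0.61 for mt-Ti (isoleucine), -0.57 for mt-Tp (proline), -0.52 for mt-Tg (glycine), -0.51 for mt-Tw (tryptophan), -0.43 for mt-Te (glutamate), -0.42 for mt-Ts1 and -0.36 for mt-Td (aspartate). It was -0.36 for mt-Tf (phenylalanine), -0.29 for mt-Tr (arginine), -0.28 for mt-Tt (threonine), -0.0036 for mt-Ts2, 0.32 for mt-Tl2 (leucine) and 0.35 for mt-Th (histidine). The genes above 0 were among the tRNA genes with the fewest counts.

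**Figure D4:**
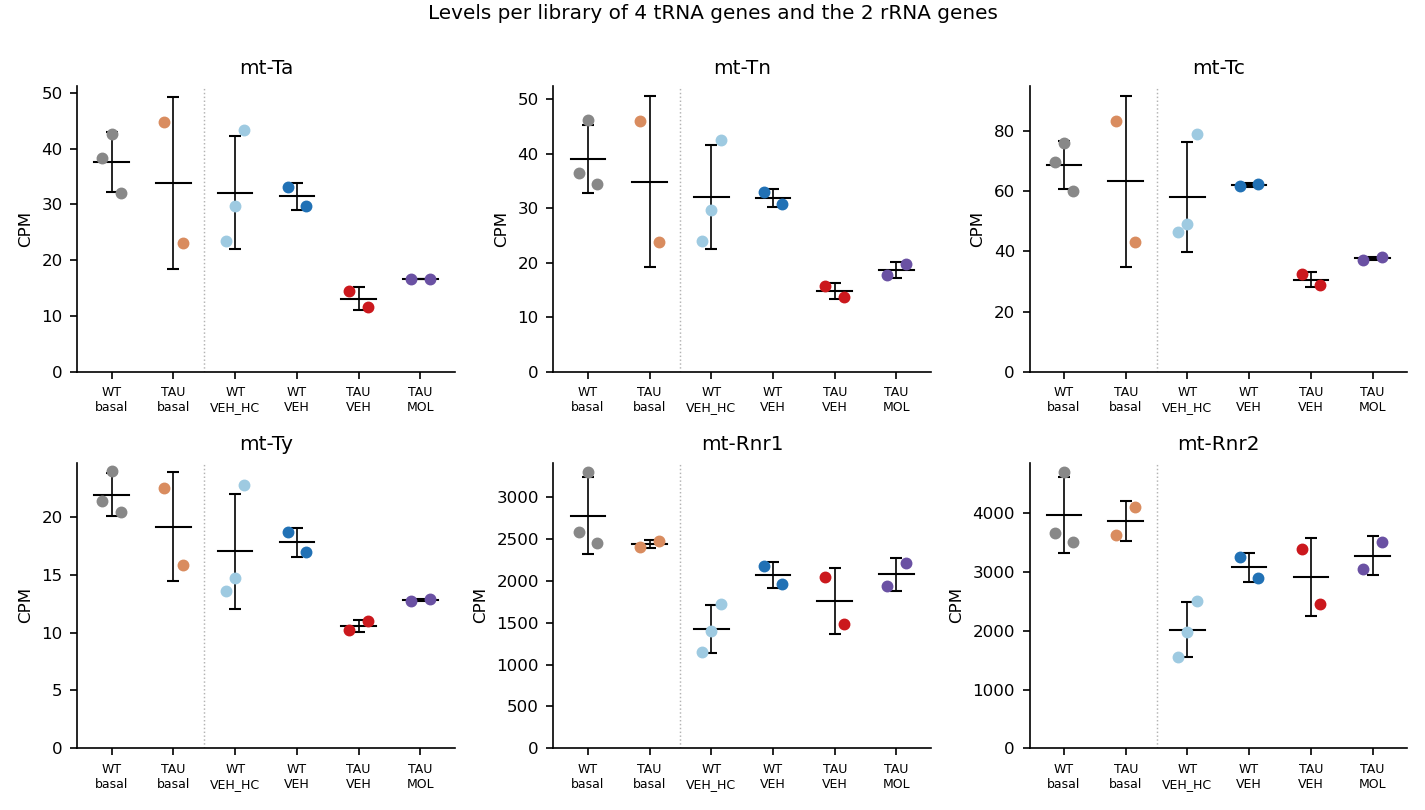
CPM per library (points) with the mean and SD of each group for mt-Ta, mt-Tn, mt-Tc and mt-Ty and for both rRNA genes; the dotted line parts the basal from the learning experiment. The TAU VEH libraries (11.7 and 14.6 CPM of mt-Ta) lie below all 5 WT libraries of the learning experiment (23.4 to 43.2 CPM), whereas the rRNA genes overlap between TAU VEH and WT VEH.

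The number of calls in TAU VEH compared to WT VEH rested on single libraries. It was 19 without WT VEH_HC replicate 2, a library of neither group, which enters through the common spread, the filter and the scaling. In that fit 2106 of 16704 genes were called lower and 838 higher. Without 1 of the libraries compared, which leaves 1 mouse in a group, the median log2 fold change of the members ran from -0.66 (without TAU VEH replicate 1) to -0.27 (without TAU VEH replicate 2). With the choroid plexus score as a covariate 0 of 36 were called (median -0.19), as were 0 of all 16820 genes. After a correction for GC content and length 19 members were called lower, while over all genes 402 were called lower in place of 1815 and 82 higher in place of 608. All 14 choroid plexus markers were lower in both TAU VEH libraries than in both WT VEH libraries. Of 7 neuronal markers 3 were lower and 2 higher in this way, and of 6 astrocyte markers, which summed to 1585 and 1717 CPM in TAU VEH and to 1339 and 1251 CPM in trained WT mice, 1 was lower and 4 were higher. The part of these signals, and of the GC differences given above, in the values of the members was not tested. Over 19 alternatives the adjusted p of mt-Ta ran from 1.5e-29 to 0.76.

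Whether CSP-TTK21 moved the members in trained THY-Tau22 mice is read from TAU MOL compared to TAU VEH. No member was called in edgeR or in DESeq2, and 0 of 36 had an unadjusted p under 0.05. Over all genes edgeR called 0% in either direction, while 1064 of 16820 had an unadjusted p under 0.05, and DESeq2 called 0.196% higher and 0.137% lower. The median log2 fold change was 0.22 beside 0.01 over all genes, and 35 of 36 members lay above 0, all 12 protein-coding genes between 0.14 (mt-Co3) and 0.24 (mt-Atp8). Standard errors of 0.12 to 0.52 were about as large as these values. mt-Ta stood at 0.32 ± 0.23 (SE), mt-Nd1 at 0.21 ± 0.13 (SE) and mt-Rnr2 at 0.17 ± 0.19 (SE). All 14 choroid plexus markers were higher in both TAU MOL libraries (sums of 719 and 786 CPM) than in both TAU VEH libraries (243 and 290 CPM), while 1 of 7 neuronal markers was higher and 3 were lower, and 0 of 6 astrocyte markers were higher and 1 was lower. With the choroid plexus score as a covariate the members' median was 0.08, and 15 of 36 lay below 0 in place of 1. Their part in the members' values was not tested. TAU VEH replicate 2, the library of lowest depth and lowest mitochondrial share, held the lower value of every protein-coding member among the TAU VEH pair.

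Compared to WT VEH, TAU MOL mice were lower in 2 of 36 members and higher in 0, and 9 had an unadjusted p under 0.05, as had 3324 of all 16820 genes. Over all genes 5.02% were called lower and 0.612% higher. Both were tRNA genes of the stretch shown, mt-Ta (-0.92 ± 0.22, SE, adjusted p = 0.033 in edgeR) and mt-Tn (-0.77 ± 0.20, SE, adjusted p = 0.047). DESeq2 also called 2, mt-Ta and mt-Co2 (-0.33, adjusted p = 0.028), but not mt-Tn (adjusted p = 0.052), beside 6.30% of all genes lower and 1.61% higher. mt-Tc, at -0.72 ± 0.20 (SE, adjusted p = 0.055), did not pass in edgeR. The median log2 fold change was -0.24 (0.00 over all genes), with 24 of 36 members lower in both TAU MOL libraries than in both WT VEH libraries beside 26.9% of all genes. Protein-coding members lay between -0.36 (mt-Atp8) and -0.07 (mt-Co1), and the rRNA genes at 0.00 and 0.09. The calls were lost, to 0, without either WT VEH or either TAU MOL library, numbered 1 without either TAU VEH library, and numbered 4 without WT VEH_HC replicate 1 or 3. With library size alone 1 member was called lower and 0 higher, while over all genes 757 were called higher and 326 lower, in place of 103 and 844. With the choroid plexus score as a covariate 0 members were called, mt-Ta moving to -0.43 and mt-Tn to -0.32, and 2 of all 16820 genes, 1 in each direction. Of the choroid plexus markers 13 of 14 and of the neuronal markers 5 of 7 were lower in both TAU MOL libraries than in both WT VEH libraries, and 1 neuronal marker was higher. Of 6 astrocyte markers 3 were higher and 0 lower. Their part in the values was not tested. TAU VEH and TAU MOL were compared with the same WT VEH libraries, so these values and those of TAU VEH are not independent.

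Training itself is addressed by WT VEH compared to WT VEH_HC. Of 36 members, 1 was higher and 0 lower, and 7 had an unadjusted p under 0.05, as had 4683 of all 16820 genes. Over all genes 5.35% were called higher and 3.05% lower. The member called was mt-Rnr2, the 16S rRNA gene, with 3255 and 2904 CPM in WT VEH and 1563, 1988 and 2502 CPM in WT VEH_HC (0.61 ± 0.17, SE, adjusted p = 0.049 in edgeR). mt-Rnr1, with 2179 and 1962 CPM against 1148, 1407 and 1724 CPM, had a log2 fold change of 0.54 ± 0.16 (SE, adjusted p = 0.055) and did not pass. In both genes the trained libraries lay above all home-cage libraries, as they did in 9 of 36 members and in 23.0% of all genes. The ratio of mt-Rnr2 to mt-Rnr1 counts was 1.49 and 1.48 in WT VEH and 1.36 to 1.45 in WT VEH_HC, without overlap, and this difference was not tested. It was 1.66 and 1.65 with TAU VEH and 1.58 in both libraries of TAU MOL.

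The protein-coding members ranged from -0.07 (mt-Nd6) to 0.33 (mt-Co1) after training, and the median over members was 0.13. Among the home-cage libraries replicate 1 was the lowest for each of the 12 tested. mt-Co1 had 13622 and 12380 CPM in trained and 8657, 10551 and 11894 CPM in home-cage WT mice, without overlap, and passed in DESeq2 but not in edgeR (adjusted p = 0.10). DESeq2 called no other member, beside 6.50% of all genes higher and 4.50% lower. The call of mt-Rnr2 was fragile. DESeq2 did not make it (adjusted p = 0.084). In edgeR it was lost, with 0 members called, without any single library other than WT VEH_HC replicate 3, and 6 members were called without that one. With the choroid plexus score as a covariate its log2 fold change turned to -0.24, and all 14 choroid plexus markers were higher in both WT VEH libraries than in the WT VEH_HC libraries. Their part in the value was not tested. The adjusted p of mt-Rnr2 ran from 3.3e-15 to 0.98 over 19 alternatives.

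Nuclear genes that serve the mitochondrial genome were followed by lists of the pathway. Of 75 nuclear subunits of oxidative phosphorylation, 11 fell and 0 rose in TAU VEH compared to WT VEH (14.7% beside 10.8% of all genes called lower), with a median log2 fold change of -0.15. Cox8a, a small subunit of complex IV, stood at 357 ± 19.5 CPM in TAU VEH, below 576 ± 0.855 CPM with WT VEH (SD over 2 libraries), and fell by 0.69 on the log2 scale (adjusted p = 0.0010 in edgeR). In TAU MOL compared to WT VEH 5 fell and 0 rose (6.67% beside 5.02% of all genes called lower, median -0.13), Cox8a by 0.62. In WT VEH compared to WT VEH_HC 9 rose and 0 fell (12.0% beside 5.35% of all genes called higher, median 0.20), among them Ndufa2, an accessory subunit of complex I, by 0.43 ± 0.12 (SE, adjusted p = 0.046 in edgeR). These counts depended on the fit. With the choroid plexus score as a covariate none of the 75 was called in any of these 3 comparisons, and the median turned to 0.23, 0.06 and -0.32 in the order given. Over all 16820 genes that fit called 0 in TAU VEH compared to WT VEH, 1 in each direction in TAU MOL and 0 with training. The choroid plexus markers moved with the groups in each of these comparisons, as given above, and their part in these counts was not tested. With a library left out 3 to 18 were called in TAU VEH, 3 without TAU VEH replicate 1 or WT VEH replicate 2. In TAU MOL 0 to 8 were called, 0 without any one TAU MOL or WT VEH library. With training 0 to 43 were called, 43 without WT VEH_HC replicate 3 and at most 2 without any other library. Over all genes, 1799 of 16735 were called higher and 999 lower with training in the fit without WT VEH_HC replicate 3. With library size alone 4 of the 75 were called lower and 2 higher in TAU VEH compared to WT VEH, beside 1020 and 2578 of all genes. None of the 75 was called in the basal comparison (median -0.13) or in TAU MOL compared to TAU VEH (median 0.03).

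The enzymes that act on mitochondrial DNA and RNA mostly did not pass, and their counts in each list are read beside 10.8% of all genes called lower and 3.61% higher in TAU VEH compared to WT VEH, 5.02% and 0.612% in TAU MOL compared to WT VEH, and 3.05% and 5.35% with training. Of 9 genes of mitochondrial transcription, Polrmt, the mitochondrial RNA polymerase, had 43.5 ± 1.48 CPM in WT VEH, 32.7 ± 1.23 CPM in TAU VEH and 35.4 ± 1.86 CPM in TAU MOL (SD over 2 libraries). It fell compared to WT VEH in both, with log2 values of -0.41 (adjusted p = 0.0034 in edgeR) and -0.30 (adjusted p = 0.036). Both calls were lost with the GC and length correction, and the one in TAU MOL also with library size alone or without any one TAU VEH library. The other 8 were not called in any of the 5 comparisons. Of 19 genes of RNA processing and stability, Fastk, an RNA-binding protein of mitochondria, fell in TAU VEH (-0.60, adjusted p = 0.0010 in edgeR) and in TAU MOL (-0.46, adjusted p = 0.0099) compared to WT VEH, the latter call being lost with the GC and length correction. Lrpprc, which keeps mitochondrial mRNAs stable, rose in TAU VEH compared to WT VEH (0.29, adjusted p = 0.026 in edgeR), a call lost with that correction and without either TAU VEH library or WT VEH replicate 1. With training, Pnpt1, an RNA-degrading enzyme, rose (0.43, adjusted p = 0.027 in edgeR) and Trmu, which modifies tRNAs, fell (-0.43, adjusted p = 0.047). Both calls were lost with that correction, in a fit on only the groups compared, and without either WT VEH library or WT VEH_HC replicate 1. The call of Trmu was also lost with library size alone and without any one TAU VEH or TAU MOL library or WT VEH_HC replicate 2. Of 9 replication genes, Rrm2b, which supplies deoxynucleotides, rose in TAU VEH compared to WT VEH (0.30, adjusted p = 0.018 in edgeR), a call lost with the same correction and without any one TAU VEH or WT VEH library. Of 6 regulators of mitochondrial biogenesis, 2 fell in TAU VEH compared to WT VEH, Esrra, a nuclear receptor, by 0.48 (adjusted p = 0.0019 in edgeR). The count was 0 with the GC and length correction, and 1 without either TAU VEH library or WT VEH replicate 1, and with library size alone 1 was lower and 2 were higher. Gabpa, a transcription factor of nuclear genes for mitochondria, rose with training (0.33, adjusted p = 0.046 in edgeR). That call was lost with DESeq2 size factors in edgeR, in a fit on only the groups compared, and without any one library other than WT VEH_HC replicate 3. With the choroid plexus covariate none of the genes of these 4 lists was called in TAU VEH or TAU MOL compared to WT VEH or with training. Without any one WT VEH or TAU MOL library none was called in TAU MOL compared to WT VEH. The medians of these 4 lists lay between -0.03 and 0.10 in TAU VEH and between 0.03 and 0.07 in TAU MOL compared to WT VEH. With training they lay between -0.07 and 0.27, beside 0.00 over all genes, highest for the transcription genes, whose 9 log2 values ran from 0.01 to 0.35 with none called.

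The nuclear copies hold 9 annotated genes, and for 3 of them, Gm11410, Gm11408 and Gm13339, the WT libraries of the learning experiment stood apart from all others. The 4 with most counts were Gm10925 (like mt-Atp6), Gm13340 (like mt-Co1), Gm13341 (like mt-Co2) and Gm11410 (like mt-Cytb). The WT VEH libraries held 91 and 74 counts on Gm11410, the WT VEH_HC libraries 59, 69 and 54, with 25 and 13 in TAU VEH, 17 and 25 with TAU MOL and 10 to 21 in the 5 basal libraries. Per 100000 counts on mt-Cytb this was 10.2 to 19.8 in the 5 WT libraries of the learning experiment, 4.27 to 6.83 in its 4 THY-Tau22 libraries and 4.22 to 7.52 in the basal libraries of both genotypes. The log2 fold change of Gm11410 was -2.07 ± 0.28 (SE) in TAU VEH and -2.06 ± 0.28 (SE) in TAU MOL compared to WT VEH. It was -0.01 ± 0.40 (SE) in the basal comparison. Gm11410 was among the 4 by its 510 counts over all libraries, beside 422 on Gm11407 (like mt-Nd5), and its highest counts lay in the learning WT libraries. Its values are therefore given as a description with no test. Gm13341 fell in TAU VEH (-1.01 ± 0.28, SE, adjusted p = 0.034 in edgeR), although per counts on mt-Co2 its highest value, 141, was in TAU VEH replicate 2, while Gm10925 (-0.45) and Gm13340 (-0.37) did not pass. In TAU MOL compared to WT VEH Gm13341 (-1.61 ± 0.29, SE, adjusted p = 0.012 in edgeR) and Gm13340 (-0.72 ± 0.18, SE, adjusted p = 0.039) were lower, and Gm10925 (-0.27) did not pass. Gm11407 passed in neither comparison, at -0.25 in TAU VEH and -0.06 in TAU MOL. Gm11408 (like mt-Nd6) and Gm13339 (like mt-Nd2) were chosen after their values were seen. They passed the filter on low counts in the learning experiment, where their WT libraries were high, and not in the basal one, so their values are given as a description with no test. Gm11408 stood at 42.3 to 56.5 per 100000 counts on mt-Nd6 in the 5 learning WT libraries and at 7.08 to 19.7 in the THY-Tau22 libraries. For Gm13339 the values per 100000 counts on mt-Nd2 almost met, with 10.8 to 17.9 in these WT and 3.44 to 10.6 in the THY-Tau22 libraries. These are counts of reads placed on a copy rather than on the mitochondrial gene, and a difference in them need not be one in the transcription of the copy.

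**Figure D5:**
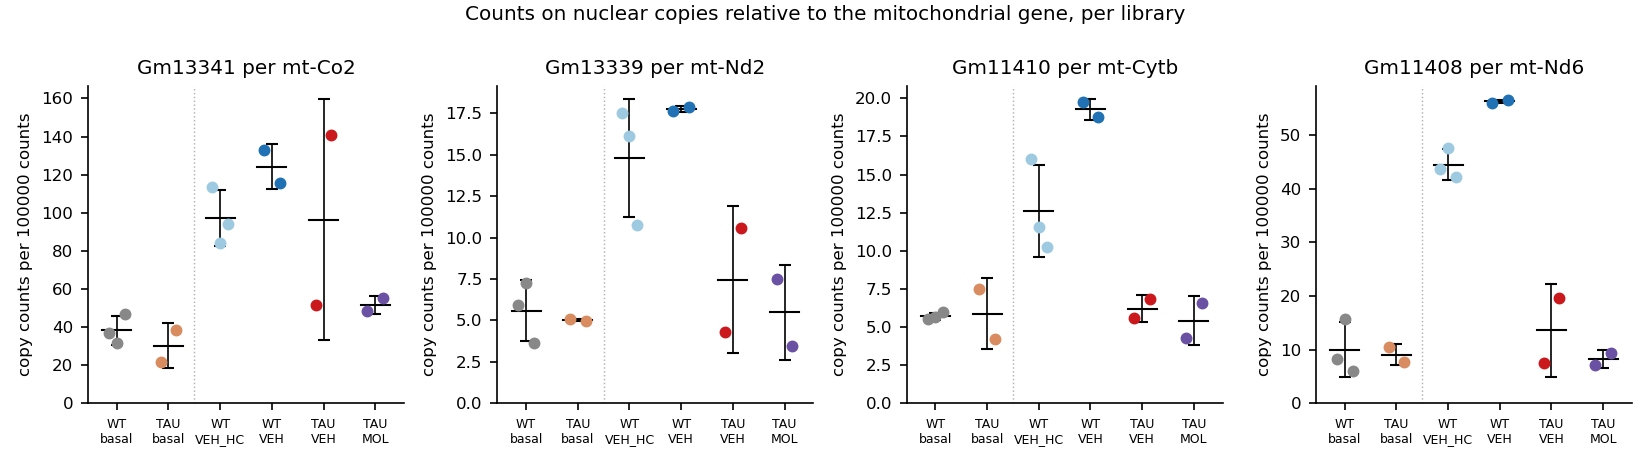
Counts on a nuclear copy gene per 100000 counts on the mitochondrial gene it resembles, per library (points) with the mean and SD per group, for Gm13341, Gm13339, Gm11410 and Gm11408. The 5 WT libraries of the learning experiment stand above the THY-Tau22 libraries of that experiment in the 3 right-hand panels (42.3 to 56.5 against 7.08 to 19.7 for Gm11408). The gap is very narrow for Gm13339 (10.8 to 17.9 against 3.44 to 10.6).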

How the data were processed

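RNA-seq of the dorsal hippocampus covered 14 libraries in 6 groups. The authors prepared poly-A libraries (TruSeq v2), aligned single-end reads of 50 bases to mm9 with TopHat2 2.0.10 and Bowtie2 2.1.0, and counted uniquely aligned reads per Ensembl gene with HTSeq 0.5.4p3. They deposited raw read counts, used here for all tests, and a normalised signal, the counts divided by a factor per library, which was read for checks alone. The authors' fold changes and p-values were not used. Lines with no values (138, learning table) were left out. The tests were edgeR 4.0.16 quasi-likelihood fits in R 4.3.3 (TMM, filterByExpr, Benjamini-Hochberg over all genes), the basal libraries alone and the 9 learning libraries together, with DESeq2 1.42.0 as an alternative, and were tested on simulated data. CPM carry TMM scaling. Copies were sought with BLAST 2.17.0 (at least 90% identity over at least 200 bases) and by exact 50-base windows, on mm9 with its GENCODE annotation. The common coefficient of variation was 0.129 (basal) and 0.084 (learning), so the number of mice and not depth limits most members. Named were all protein-coding and rRNA members, the tRNA members tested, the called gene of largest fold per list and direction, and the 4 copy genes with most counts. Copy genes beyond these 4 were added after their values were seen. Replicates are the labels' separate samples, and p-values cover the spread between them. Older symbols of Tefm and Mgme1 in the lists were corrected after the data were read. Members and lists were chosen with earlier results of these data known. GC correction used loess with a span of 0.3.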

Additional observations from a re-analysis of the deposited data

How the results depend on the processing

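The number of members called in TAU VEH compared to WT VEH (12) was 23 without a filter on low counts and in a fit on only the groups compared, 19 with the GC and length correction, 0 with the choroid plexus covariate and between 2 and 19 when a library was left out. In TAU MOL compared to WT VEH (2) it was 1 with DESeq2 size factors in edgeR or with library size alone, 13 without a filter, 4 with the replicate block, 0 with the covariate, 11 with only the groups compared and 0 to 4 with a library left out. In WT VEH compared to WT VEH_HC (1) it was 0 with DESeq2 size factors, with the covariate and with only the groups compared, 2 with library size alone, 6 without a filter and with the replicate block, 4 with the GC and length correction and 0 to 6 with a library left out. In the basal comparison and in TAU MOL compared to TAU VEH 0 were called under every alternative run. Replicate numbers did not pair the mice (correlations of deviations between same-numbered libraries from -0.16 to 0.24), so the block values show no pairing; in TAU VEH compared to WT VEH the replicate block gave 11.

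In TAU VEH compared to WT VEH 23 of 36 members lay below 0 with the covariate, in place of 33. Among protein-coding, rRNA and called tRNA members, the log2 fold change turned above 0 for mt-Rnr1 (0.26), mt-Rnr2 (0.50), mt-Tl1 (0.00096), mt-Ty (0.33), mt-Co1 (0.12) and mt-Co3 (0.041). The value of mt-Rnr2 was also above 0 with library size alone (0.070), without WT VEH replicate 1 (0.016) and without TAU VEH replicate 2 (0.14). It ranged from -0.33 to 0.14 when a library was left out. mt-Rnr2 turned to -0.24 with the covariate in WT VEH compared to WT VEH_HC. The cause was not tested. Library size alone moved the median of all genes in TAU VEH compared to WT VEH to 0.15 and that of the members to -0.28.

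Over other genes as denominator and over protein-coding members alone the mitochondrial share was 7.92% and 6.66% in TAU basal, 8.20% and 7.04% in WT VEH, 7.76% and 6.61% in TAU MOL, 6.89% and 5.91% in TAU VEH, 8.27% and 6.92% in WT basal and 7.40% and 6.52% in WT VEH_HC. With 2 mice in most groups, members with few counts, such as mt-Tv or mt-Ts2, were limited by depth as well.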
